A study of Mus musculus with 30 samples.

Results

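The data cover the enzyme families that oxidise, conjugate and reduce drugs and reactive oxygen in circulating leukocytes of cyclophosphamide-treated mice: aldehyde and alcohol dehydrogenases, glutathione transferases and the enzymes that make and reduce glutathione, cytochromes P450, aldo-keto and carbonyl reductases, quinone oxidoreductase, peroxiredoxins, thioredoxins, glutaredoxins, superoxide dismutases and glutathione peroxidases. Members were taken by gene symbol from the array annotation, with no threshold on their values. The families were chosen with earlier results of these data known, and Gpx1, Gpx4, Mgst1, Txn1 and Cyp4f18 were set aside with their own results known. The array held 130 such genes in 14 families, among 9616 gene symbols. Of these, 70 had enough values to be tested, among 6515 tested features in all, and the other 60 had values in 0 to 12 of the 15 samples. Only 55 members had a value in every sample.

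The mice were of the inbred DBA/2 strain, and leukocytes came from their peripheral blood. They were untreated (4 samples) or had received 83 mg/kg cyclophosphamide intraperitoneally, with blood drawn 1 day (4 samples), 2 days (4 samples) or 5 days (3 samples) later. Each of these 15 samples, which the series text calls independently harvested, was measured as 2 technical replicates on 2-colour arrays, with blood RNA in Cy5 and a pool of DBA/2 bone marrow cells in Cy3. The labels call the pool untreated in one field and name the drug in another, and it is taken here as the same pool throughout. A log2 ratio of 0 therefore means the same relative level in blood as in the marrow pool, and a log2 change is the treated group minus the untreated one, or the later day minus the earlier, given with the fitted standard error (SE). Neither the number of mice behind a sample nor their age is given in the sources used here. The labelled cell type could be checked against its markers only in part. In untreated samples the median over 3 tested T cell genes lay between 0.36 and 1.89. Medians lay between 0.21 and 0.58 over 6 B cell, 0.52 and 1.42 over 5 NK cell and 0.50 and 1.10 over 6 monocyte genes. Over 8 neutrophil genes they lay between -1.84 and -1.27, and over 6 platelet genes between 1.92 and 2.43. Cd3e and Cd79a, which define T and B cells, had too few values to be tested, and what an empty value means is not given.

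Cyclophosphamide is a prodrug. Liver P450s, above all those of the Cyp2b, Cyp2c and Cyp3a subfamilies, hydroxylate it to a form that opens to aldophosphamide, which either breaks down to the DNA-alkylating mustard and acrolein or is oxidised to an inactive acid by aldehyde dehydrogenases. Acrolein and the mustard are bound by glutathione, on their own or through glutathione transferases, and peroxiredoxins, glutaredoxins and glutathione peroxidases keep thiols and peroxides in balance. Of the aldehyde dehydrogenases best known for this step, Aldh1a1 had 0 values and Aldh3a1 had 2, so neither could be tested. Gclc and Gclm, the subunits of the enzyme that starts glutathione synthesis, had 1 and 2 values, Gss and Gsr, which finish glutathione and reduce it again, had 12 and 0, and none of the 4 was tested.

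Over the pairwise comparisons the share of the 70 members called lay within a few percentage points of the share of all features. A member was called at a limma adjusted p under 0.05, with the adjustment over all 6515 features. At day 1 against untreated, 5 of the 70 members (7.14%) were called, 2 higher and 3 lower, where 4.60% of all features were called, 2.29% higher and 2.32% lower. At day 2 against untreated, 8 (11.4%) were called, 1 higher and 7 lower, where 12.7% of all features were called, 4.83% higher and 7.84% lower. At day 5 against untreated, 0 of the 70 members were called by limma, where 1.09% of all features were called. An unadjusted limma p under 0.05 was found there for 6 of the 70 members and for 1134 of the 6515 features. Between day 2 and day 1 the count was 2 members (2.86%), 1 in each direction, where 1.15% of all features were called, 0.537% higher and 0.614% lower. Between day 5 and day 2 it was 16 members (22.9%), 13 higher at day 5 and 3 lower, where 25.5% of all features were called, 12.8% higher and 12.7% lower. A moderated F test over the 4 groups called 15 members (21.4%), where 22.7% of all features were called. These shares depend on the 5 genes set aside. With them counted as members, the shares against untreated were 10.7% at day 1, 16% at day 2 and 2.67% at day 5. Between day 2 and day 1 the share was then 5.33%, between day 5 and day 2 26.7%, and in the F test 26.7%. Each of these was above the share of all features.

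Against untreated, the 70 members had a median change of -0.03 at day 1, -0.00 on day 2 and 0.01 after 5 days, beside 0.03, 0.06 and 0.00 over all features. Between day 5 and day 2 it was -0.01 for the members and -0.07 for all features. In all, 18 members carried 31 calls. Day 2 samples enter 3 of the comparisons and untreated samples 3, so the counts are not independent of each other.

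**Figure D1:**
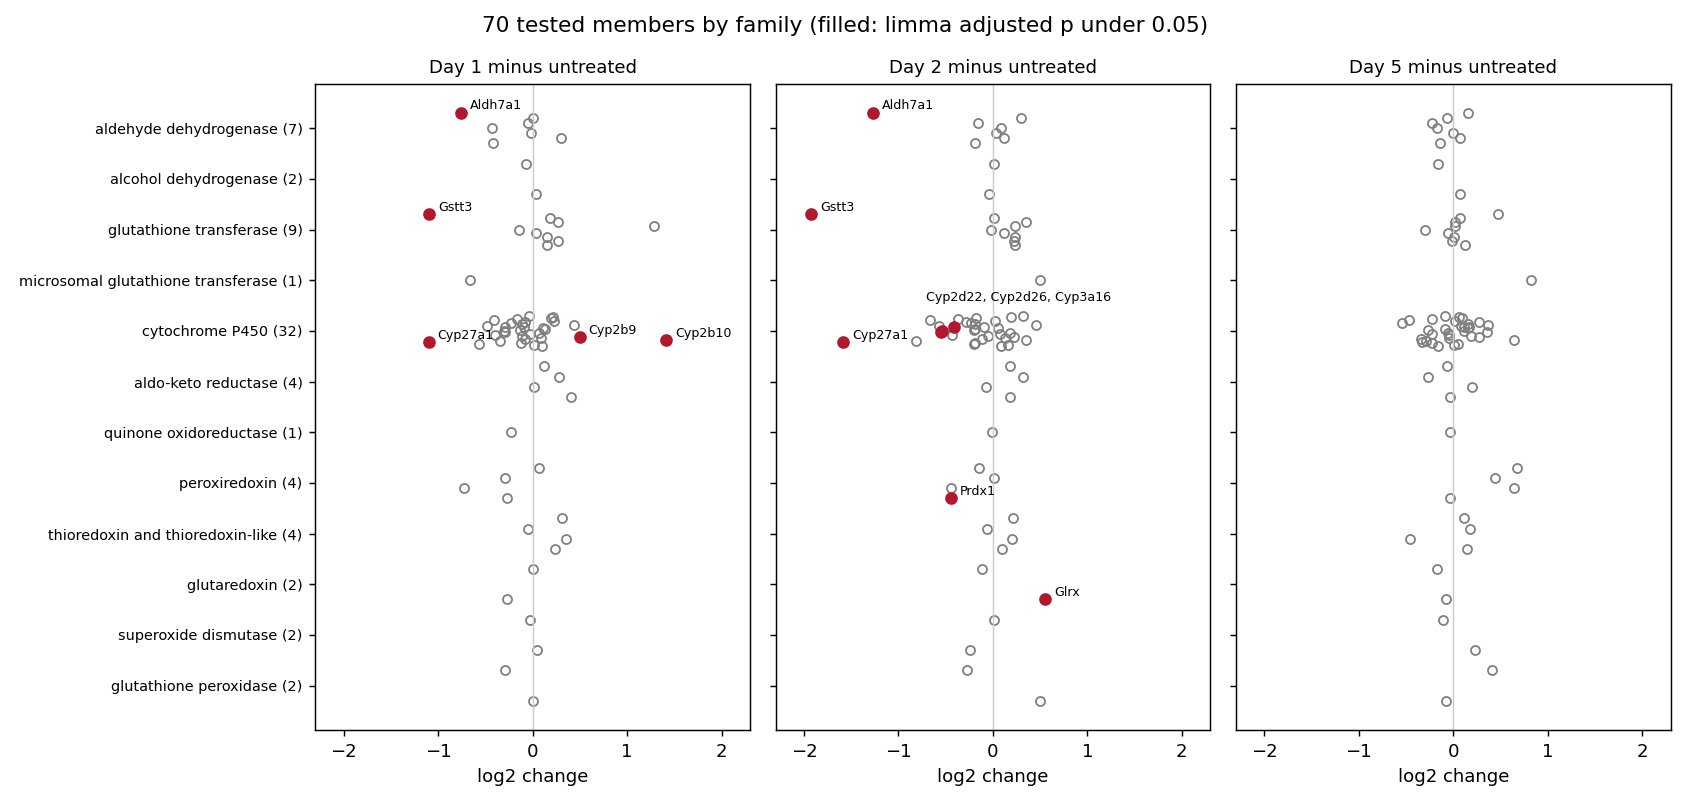
Each point is a tested member, placed by its family (rows, number tested in brackets) and its log2 change against untreated (horizontal axis) at day 1, day 2 and day 5. Filled points were called by limma: 5 at day 1, 8 at day 2 and 0 at day 5, with Gstt3 farthest to the left at day 2.

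In untreated blood, 58 of the 70 members lay within 0.5 log2 of the marrow pool, as did 82.2% of all features, 7 lay above and 5 below. Mgst3, a microsomal glutathione transferase and peroxidase, had the lowest mean, -2.97 ± 0.77 (SD, n = 4), and Txnip, which binds and inhibits thioredoxin, the highest, 1.66 ± 0.10 (SD, n = 4). Neither was called: the F test gave an adjusted p of 0.075 for Mgst3 and 0.16 for Txnip, with changes of up to 1.16 for Mgst3, between day 2 and day 1, and of -0.66 for Txnip between day 5 and day 2. Of the 32 tested P450s, most of them best known from liver, 27 lay within 0.5 log2 of the pool and the highest was Cyp4f16 at 0.98. Such ratios near 0 can come from a similar level in both RNAs or from spots near background, and no intensity was used here that would tell them apart.

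Among the glutathione transferases, Gstt3 (gene 103140), a theta class enzyme, was lower at day 1 and lower still at day 2, and at day 5 was back at or above its untreated values. Its promoter is shown with that of Gstt1, the other theta class member tested, because the genes stand near each other on chromosome 10 and only Gstt3 was called. RefSeq's first listed start on GRCm38.p6 gives chr10:75781373-75781672 (minus strand) for Gstt3 and chr10:75797682-75797981 (minus strand) for Gstt1, each running from 250 bases before the start to 50 after it, 5′ to 3′. Capitals mark the longest run that both share, 9 bases, and the aligned promoters were identical at 48.9% of positions.
Gstt3: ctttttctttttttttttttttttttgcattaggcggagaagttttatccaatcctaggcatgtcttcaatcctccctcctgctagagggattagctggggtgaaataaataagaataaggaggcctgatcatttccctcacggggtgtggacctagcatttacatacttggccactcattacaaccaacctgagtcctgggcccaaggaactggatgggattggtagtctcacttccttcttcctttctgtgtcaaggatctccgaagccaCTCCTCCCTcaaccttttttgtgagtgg
Gstt1: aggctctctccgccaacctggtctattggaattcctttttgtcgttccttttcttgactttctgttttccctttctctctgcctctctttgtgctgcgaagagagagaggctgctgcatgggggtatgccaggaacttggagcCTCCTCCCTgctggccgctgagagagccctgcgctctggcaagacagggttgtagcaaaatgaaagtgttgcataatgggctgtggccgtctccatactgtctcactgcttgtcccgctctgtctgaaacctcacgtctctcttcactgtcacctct

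Gstt3 had log2 ratios of 0.32, 0.54, 0.68 and 0.78 in untreated samples, -0.89, -0.98, 0.12 and -0.33 at day 1, -1.17, -1.15, -1.73 and -1.33 at day 2, and 1.46, 1.19 and 0.51 at day 5. Every day 1 and day 2 value lay below every untreated value, and the day 5 values overlapped the untreated ones. Gstt3 fell at day 1 by 1.10 ± 0.24 (SE, adjusted p = 0.022) and at day 2 fell by 1.93 ± 0.24 (SE, adjusted p = 1.0e-04). It was higher at day 5 than at day 2 by 2.40 ± 0.26 (SE, adjusted p = 1.2e-05), the largest change of any member in any comparison. The change at day 5 against untreated was 0.48 (adjusted p = 0.36). The day 1 call was lost without untreated replicate 3 or 4 or day 1 replicate 1, 2 or 4, with changes of -1.16 to -0.94 and adjusted p of 0.0501 to 0.0901, whereas both other calls held without each sample in turn.

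Gstt1 (gene 14871) had changes of 0.19 at day 1, 0.01 at day 2 and 0.07 at day 5, with adjusted p between 0.54 and 0.98. The other 7 transferases of the alpha, kappa, mu and omega classes had day 2 changes between -0.02 for Gstm7 and 0.35 for Gsto2, and 0 of them was called in any pairwise comparison. Gsto1 (gene 14873), an omega class enzyme that reduces dehydroascorbate, had values of 1.46, 2.28, 1.51 and 1.41 at day 1, against 0.44, -0.04, 0.71 and 0.41 in untreated samples. The groups did not overlap and the change was 1.28 ± 0.35 (SE), yet the adjusted p was 0.0502, just outside the threshold. The F test did call Gsto1 (adjusted p = 0.037). At day 2 its values were spread over -0.10, -0.09, 1.86 and 0.80, with replicates 1 and 2 low and replicates 3 and 4 high.

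**Figure D2:**
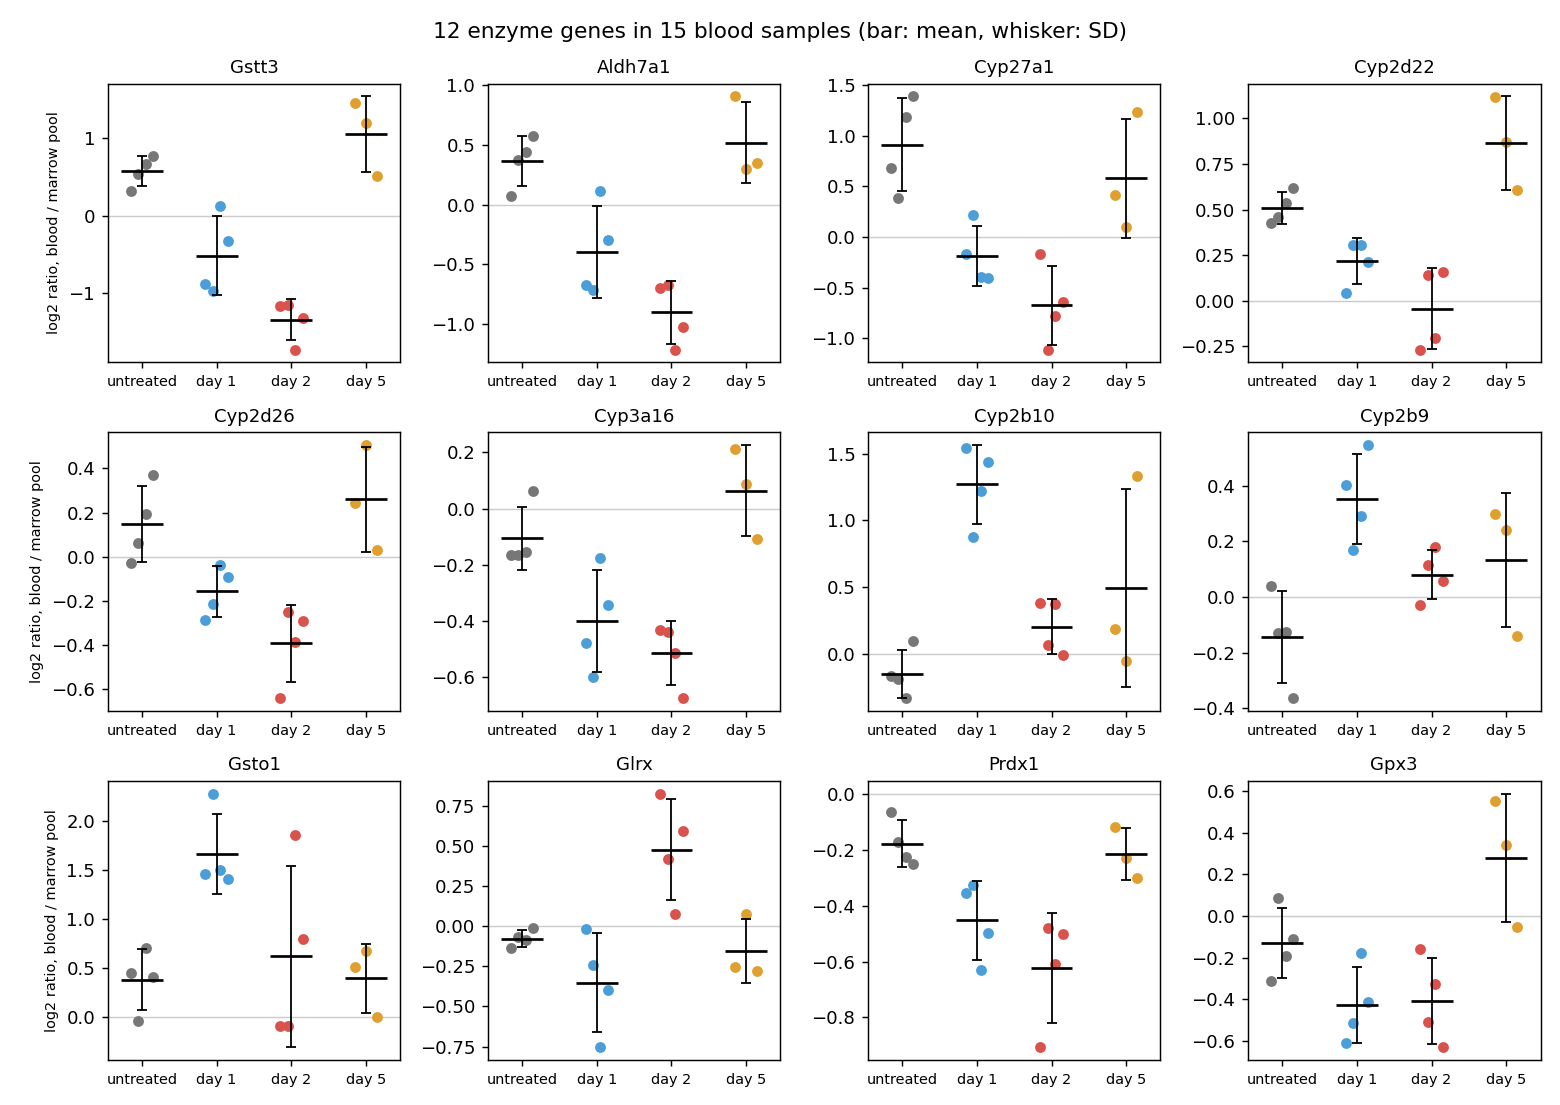
Log2 ratio of blood over the marrow pool (vertical axes, each with its own scale) of 12 members in untreated, day 1, day 2 and day 5 samples. Points are samples, bars group means and whiskers SD (n = 4, at day 5 n = 3): Gstt3, Aldh7a1 and Cyp27a1 were lowest at day 2, Cyp2b10 was highest at day 1 and Glrx at day 2.

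Of the 7 tested aldehyde dehydrogenases, Aldh7a1 was called and had the same order of groups as Gstt3. Aldh7a1 (gene 110695), antiquitin, oxidises the semialdehyde formed in lysine breakdown. Its log2 ratios were 0.08, 0.37, 0.44 and 0.57 in untreated samples, -0.68, -0.72, 0.11 and -0.30 at day 1, -0.70, -0.67, -1.21 and -1.03 at day 2, and 0.91, 0.30 and 0.35 at day 5. Day 2 values lay below all untreated and all day 5 values, whereas day 1 replicate 3 overlapped the untreated samples. Aldh7a1 fell by 1.27 ± 0.20 at day 2 (SE, adjusted p = 5.0e-04) and was higher at day 5 than at day 2 by 1.42 ± 0.21 (SE, adjusted p = 1.8e-04). At day 1 it fell by 0.76 ± 0.20 (SE, adjusted p = 0.042), a call lost without untreated replicate 2, 3 or 4 or day 1 replicate 1, 2 or 4 (changes of -0.79 to -0.65, adjusted p of 0.0824 to 0.148).

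The other 6 aldehyde dehydrogenases were not called in a pairwise comparison. Their day 2 changes ran from -0.19 for Aldh16a1 to 0.30 for Aldh6a1, an enzyme of valine breakdown. Aldh3b1, which acts on lipid aldehydes, was called by the F test (adjusted p = 0.047), with values of -0.98, -1.23, -1.24 and -1.28 at day 1, against -0.76, -0.97, -0.66 and -0.64 in untreated samples, which lay higher without overlap (change -0.43, adjusted p = 0.085). Aldh2, the mitochondrial acetaldehyde dehydrogenase, had 12 values and Aldh9a1 had 1, too few to be tested. Both tested alcohol dehydrogenases, Adh5 and Adh6a, changed by no more than 0.17 in size in the 5 comparisons (0 calls by limma, 0 at an unadjusted p under 0.05).

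The 32 tested P450s gave 3 calls at day 1 (9.38%), 4 at day 2 (12.5%) and 7 between day 5 and day 2 (21.9%), where 4.60%, 12.7% and 25.5% of all features were called, so that the second and the third of these shares were no higher than the background. Cyp2b10 and Cyp2b9 rose at day 1, Cyp27a1 fell, and at day 2 Cyp27a1, Cyp2d22, Cyp2d26 and Cyp3a16 were all lower than in untreated samples. All 7 P450s called between day 5 and day 2 were higher at day 5, where 12.8% of all features were called higher and 12.7% lower. Many of these genes have close paralogs, and whether a probe also binds a paralog was not tested.

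Cyp2b10, the phenobarbital-inducible mouse enzyme of a subfamily that activates cyclophosphamide, and its neighbour Cyp2b9 are shown with their promoters because both rose on the same day. RefSeq places them on the plus strand of GRCm38.p6 at chr7:25897408-25897707 for Cyp2b10 and chr7:26173159-26173458 for Cyp2b9, in the same window of 250 bases before the start to 50 after. The windows were identical at 72.9% of aligned positions, and capitals mark the longest shared run, 14 bases. Only this pair and the Gstt pair were aligned, so no share for other promoters stands beside it. Whether the likeness bears on the day 1 rise was not tested. In both genes this run lies in the 50 bases after the start, not before it. In Cyp2b10 it ends at the last base of the window, so a longer shared run could not be seen.
Cyp2b10: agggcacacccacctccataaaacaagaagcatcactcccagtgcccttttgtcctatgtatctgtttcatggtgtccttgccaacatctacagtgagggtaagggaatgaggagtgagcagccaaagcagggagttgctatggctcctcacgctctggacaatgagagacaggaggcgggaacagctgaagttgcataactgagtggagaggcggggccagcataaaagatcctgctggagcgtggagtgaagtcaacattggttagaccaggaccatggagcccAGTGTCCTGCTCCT
Cyp2b9: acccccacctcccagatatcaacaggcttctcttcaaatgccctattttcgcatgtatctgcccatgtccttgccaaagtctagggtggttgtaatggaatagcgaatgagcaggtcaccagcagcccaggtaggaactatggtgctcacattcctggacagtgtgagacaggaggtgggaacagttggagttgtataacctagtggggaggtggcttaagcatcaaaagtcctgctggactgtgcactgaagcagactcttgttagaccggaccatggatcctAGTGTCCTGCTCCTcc

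Cyp2b10 (gene 13088) had log2 ratios of -0.16, -0.19, -0.33 and 0.10 in untreated samples, 1.54, 0.88, 1.22 and 1.43 at day 1, 0.39, 0.07, 0.38 and -0.00 at day 2, and 0.19, -0.05 and 1.34 at day 5. All day 1 values lay above all untreated and all day 2 values, and at day 5 replicate 3 alone stood as high as day 1. Cyp2b10 rose at day 1 by 1.42 ± 0.24 (SE, adjusted p = 0.0077), and this call held without each sample in turn, with changes of 1.32 to 1.55. It was lower at day 2 than at day 1 by a log2 change of -1.06 ± 0.24 (SE, adjusted p = 0.043). That second call was lost without any 1 of 11 samples (all 4 untreated, day 1 replicates 1, 3 and 4, all 4 day 2; adjusted p of 0.053 to 0.161). The call was also lost in 6 of 9 other settings, among them technical replicate 1 or 2 alone (adjusted p = 0.094 and 0.17).

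Cyp2b9 (gene 13094) had values of 0.40, 0.17, 0.29 and 0.55 at day 1, against 0.04, -0.13, -0.12 and -0.36 in untreated samples, with no overlap. It rose by 0.50 ± 0.12 (SE, adjusted p = 0.037), a call lost without untreated replicate 2, 3 or 4 or day 1 replicate 1, 2 or 4 (changes of 0.42 to 0.56, adjusted p of 0.0631 to 0.124). The other Cyp2b genes tested, Cyp2b13 and Cyp2b19, had day 1 changes of -0.08 and 0.09 (adjusted p = 0.83 and 0.66). Beside the day 1 values, 4 of 6 tested platelet genes also rose at day 1, where 2.29% of all features were called higher. The sample medians of that list were 3.46 to 3.76 at day 1, against 1.92 to 2.43 in untreated samples, and its part in the Cyp2b10, Cyp2b9 and Gsto1 values was not tested.

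Cyp27a1 (gene 104086), a mitochondrial sterol hydroxylase of bile acid synthesis that macrophages also use, showed the largest fall among the P450s. Its values were 0.68, 0.39, 1.19 and 1.39 in untreated samples, -0.17, 0.22, -0.40 and -0.41 at day 1, -0.17, -1.11, -0.78 and -0.65 at day 2, and 0.41, 0.10 and 1.24 at day 5. Every untreated value lay above every day 1 and day 2 value, and every day 5 value above every day 2 value. Cyp27a1 fell by 1.59 ± 0.27 at day 2 (SE, adjusted p = 9.4e-04) and was higher at day 5 than at day 2 by 1.26 ± 0.29 (SE, adjusted p = 0.0048). The day 1 fall was 1.10 ± 0.27 (SE, adjusted p = 0.036), a call lost without untreated replicate 3 or 4 or any 1 of the 4 day 1 samples (changes of -1.24 to -0.94, adjusted p of 0.0509 to 0.103).

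Cyp2d22 (gene 56448) and Cyp2d26 (gene 76279), members of a drug-metabolising subfamily best known from liver, were lower at day 2 than in untreated samples and higher at day 5 than at day 2. Cyp2d22 had values of 0.42, 0.46, 0.53 and 0.62 in untreated samples, 0.04, 0.31, 0.31 and 0.21 at day 1, -0.27, 0.14, -0.20 and 0.16 at day 2, and 1.12, 0.87 and 0.61 at day 5. The untreated samples stood above all day 1 and day 2 samples. The fall at day 2 was 0.55 ± 0.13 (SE, adjusted p = 0.011), and day 5 exceeded day 2 by 0.91 ± 0.14 (SE, adjusted p = 2.4e-04).

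Cyp2d26 had values of -0.64, -0.25, -0.39 and -0.29 at day 2, against -0.03, 0.06, 0.19 and 0.37 in untreated samples, with no overlap. It fell by 0.54 ± 0.13 (SE, adjusted p = 0.011) and was higher at day 5 than at day 2 by 0.65 ± 0.14 (SE, adjusted p = 0.0028). These 4 calls of Cyp2d22 and Cyp2d26 held without each sample in turn. The other Cyp2d members tested, Cyp2d9 and Cyp2d10, had day 2 changes of -0.20 and 0.18 (adjusted p = 0.66 and 0.33).

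Of the Cyp3a subfamily, the main drug oxidases of liver, Cyp3a16 (gene 13114) had values of -0.43, -0.44, -0.51 and -0.68 at day 2, against -0.17, -0.16, -0.16 and 0.06 in untreated samples. The groups did not overlap, and Cyp3a16 fell by 0.41 ± 0.12 (SE, adjusted p = 0.029). It was higher at day 5 than at day 2 by 0.58 ± 0.12 (SE, adjusted p = 0.0029). The day 2 call was lost without untreated replicate 3 or 4 or day 2 replicate 3 or 4 (changes of -0.43 to -0.35, adjusted p of 0.0512 to 0.0985). Cyp3a41a had a day 2 change of 0.46 in the opposite direction that missed the threshold (adjusted p = 0.050). Cyp3a11, Cyp3a13 and Cyp2c29, major liver forms, had 1, 0 and 1 values and were not tested.

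The remaining P450 calls were between day 5 and day 2. Cyp3a25 (gene 56388) had values of 0.97, 0.79 and 0.72 at day 5, against 0.17, -0.29, 0.31 and 0.50 at day 2, a change of 0.65 (adjusted p = 0.034). Cyp4b1 (gene 13120), which oxidises fatty acids and foreign compounds in lung and kidney, had a change of 0.56 (adjusted p = 0.021), with day 5 replicate 3 at 0.22 within the day 2 range. Cyp46a1 (gene 13116), the brain cholesterol hydroxylase, had a change of 0.34 (adjusted p = 0.040), and of 0.23 (adjusted p = 0.19) with technical replicate 2 alone. Each of the 3 calls was lost without any 1 of several samples. Cyp3a25 lost its call without day 2 replicate 1 or 2 or day 5 replicate 1 or 2 (adjusted p of 0.0586 to 0.121), and Cyp4b1 without day 2 replicate 1 or 3 or day 5 replicate 1 (0.0566 to 0.13). Cyp46a1 lost its call without any 1 of 8 samples, day 1 replicates 1 and 2, the 4 day 2 samples and day 5 replicates 1 and 2 (0.0505 to 0.155).

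**Figure D3:**
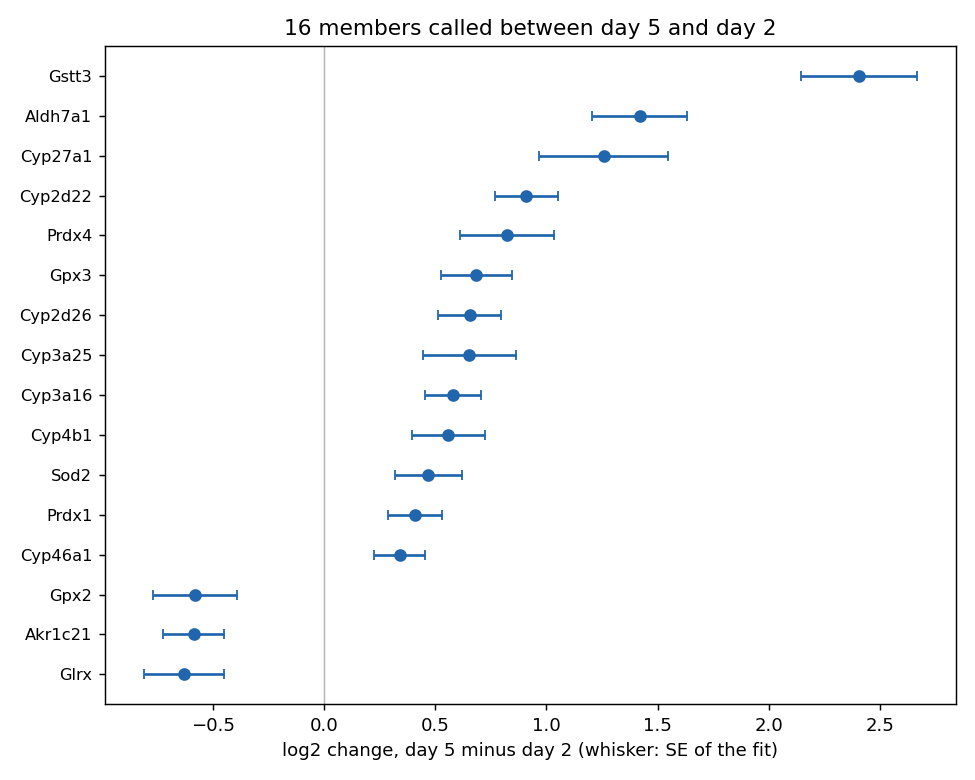
Log2 change of day 5 minus day 2 (horizontal axis) for the 16 members called in that comparison, with whiskers for the SE of the fit. Of these, 13 lie to the right of 0, led by Gstt3 at 2.40, and Glrx, Akr1c21 and Gpx2 lie to the left.

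Among the thiol peroxidases, Prdx1 was lower at day 2, and Prdx1 and Prdx4 were higher at day 5 than at day 2. Prdx1 (gene 18477), a cytosolic peroxiredoxin known as a target of the oxidative stress factor Nrf2, is shown with its promoter because it was the only 1 of 16 called members with a listed promoter that held the core of the antioxidant response element, TGACNNNGC, within that window. RefSeq gives chr4:116685349-116685648 on the plus strand of GRCm38.p6, from 250 bases before the start to 50 after. Capitals mark the core, which reads on the reverse strand and begins at base 118 of the window.
Prdx1: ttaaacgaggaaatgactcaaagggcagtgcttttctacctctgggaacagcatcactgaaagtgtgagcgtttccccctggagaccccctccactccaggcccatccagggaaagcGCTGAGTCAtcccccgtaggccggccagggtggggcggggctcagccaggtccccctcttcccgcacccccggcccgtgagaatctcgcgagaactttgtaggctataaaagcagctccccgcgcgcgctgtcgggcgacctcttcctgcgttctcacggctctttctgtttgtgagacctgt

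The core was searched on both strands and occurred in 12.5% of the 27025 listed promoters and in 4 of the 60 tested members with a promoter (6.67%), namely Adh6a, Cyp2c65, Cyp8b1 and Prdx1. AGATAA, a motif of the Gata1 family, occurred in 11.4% of all promoters and in 6 of the 60. TATAAA occurred in 14.2% of all promoters and in 17 of the 60 (28.3%), among them Cyp2d26, Cyp3a16 and Prdx1. A match describes the letters of the window only.

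Prdx1 had log2 ratios of -0.06, -0.17, -0.23 and -0.25 in untreated samples, -0.35, -0.33, -0.63 and -0.50 at day 1, -0.91, -0.48, -0.61 and -0.50 at day 2, and -0.12, -0.23 and -0.30 at day 5. The untreated and day 5 samples lay above all day 1 and day 2 samples. Prdx1 fell at day 2 by 0.45 ± 0.11 (SE, adjusted p = 0.017), a call lost under quantile normalization (change -0.40, adjusted p = 0.058). It was higher at day 5 than at day 2 by 0.41 ± 0.12 (SE, adjusted p = 0.023), a call lost without day 2 replicate 1 or day 5 replicate 1 or 2 (changes of 0.31 to 0.41, adjusted p of 0.0514 to 0.0886). That call was also lost under quantile normalization (change 0.40, adjusted p = 0.056) and in a fit of only the compared groups (0.41, adjusted p = 0.10).

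Prdx4 (gene 53381), the peroxiredoxin of the endoplasmic reticulum, had values of -0.14, 0.47 and -0.44 at day 5, against -1.03, -0.49, -0.83 and -1.09 at day 2. The groups did not overlap, and the change was 0.82 ± 0.21 (SE, adjusted p = 0.0096), falling to 0.57 (adjusted p = 0.0613) without day 5 replicate 2. Prdx2, abundant in red cells, and the mitochondrial Prdx3 were not called, and Prdx2 was widely spread at day 2, at 0.48, -2.71 and -0.53.

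Glrx (gene 93692), the cytosolic glutaredoxin that removes glutathione from proteins, was the only member called higher at day 2 against untreated. Its values were -0.14, -0.07, -0.09 and -0.01 in untreated samples, -0.02, -0.24, -0.75 and -0.40 at day 1, 0.82, 0.42, 0.07 and 0.59 at day 2, and -0.26, 0.07 and -0.28 at day 5. All day 2 values lay above all untreated and day 1 values, and day 2 replicate 3 was level with day 5 replicate 2. Glrx rose by 0.55 ± 0.17 against untreated (SE, adjusted p = 0.041), was higher at day 2 than at day 1 by 0.83 ± 0.17 (SE, adjusted p = 0.033), and was lower at day 5 than at day 2 by a change of -0.63 ± 0.18 (SE, adjusted p = 0.017). The change in each comparison stayed on its side of 0 without each sample, but each of the 3 calls was lost without any 1 of several samples.

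The first Glrx call was lost without any 1 of 9 samples (the 4 untreated, day 1 replicates 2 and 4 and day 2 replicates 1, 2 and 4; adjusted p of 0.0501 to 0.107). The call between day 2 and day 1 was lost without any 1 of 6, untreated replicate 3, day 1 replicates 3 and 4 and day 2 replicates 1, 2 and 4 (0.0517 to 0.12). The call between day 5 and day 2 was lost without day 2 replicate 1 or day 5 replicate 1 or 3 (0.0508 to 0.0698). Glrx2, its mitochondrial relative, had a day 2 change of -0.11 (adjusted p = 0.78).

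Among the pairwise comparisons, the tested glutathione peroxidases Gpx2 and Gpx3 and the superoxide dismutase Sod2 were called between day 5 and day 2 alone, and the F test also called Gpx3 (adjusted p = 0.013). Gpx3 (gene 14778), the secreted plasma form, had values of 0.55, 0.34 and -0.06 at day 5, against -0.16, -0.51, -0.33 and -0.63 at day 2, with no overlap and a change of 0.69 ± 0.16 (SE, adjusted p = 0.0054) that held without each sample. Gpx2 (gene 14776), the form of gut epithelium, had values of 0.48, 0.17 and -0.33 at day 5, against 0.95, 0.52 and 0.59 in the 3 day 2 samples that had one, a change of -0.58 (adjusted p = 0.040). Its 2 probes had values in different samples, so the Gpx2 values mix probes. The Gpx2 call was lost without any 1 of 9 samples, untreated replicates 1 and 2, day 1 replicates 1, 2 and 4, day 2 replicates 2 and 4 and day 5 replicates 2 and 3 (changes of -0.62 to -0.36, adjusted p of 0.0511 to 0.127).

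Sod2 (gene 20656), the mitochondrial manganese enzyme, had values of 0.75, 0.58 and 0.49 at day 5, against 0.13, 0.35, -0.18 and 0.26 at day 2. It was higher at day 5 by 0.47 ± 0.15 (SE, adjusted p = 0.031), without overlap, and lost its call without day 2 replicate 1 or 3 or day 5 replicate 1 or 2 (changes of 0.36 to 0.48, adjusted p of 0.0546 to 0.123). Sod3, the extracellular form, had a change of -0.12 in the same comparison (adjusted p = 0.59), and Sod1 had 3 values and was not tested.

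Akr1c21 (gene 77337), an aldo-keto reductase of steroid metabolism, was lower at day 5 than at day 2. It had values of -0.26, 0.09 and 0.13 at day 5, against 0.52, 0.49 and 0.72 in the 3 day 2 samples that had one, a change of -0.59 ± 0.14 (SE, adjusted p = 0.0057) that held without each sample. A fit of only the compared groups gave an adjusted p of 0.0524. The other 3 aldo-keto reductases tested, Akr1c6, Akr1c12 and Akr1c18, were not called. Neither were the thioredoxin reductase Txnrd1, with changes of 0.32, 0.21 and 0.11 at days 1, 2 and 5 against untreated, and Nqo1, the quinone reductase often read as an Nrf2 target, with changes of -0.23, -0.01 and -0.03 (adjusted p between 0.31 and 0.98).

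Markers of several blood cell types moved on the same days as these enzymes. For the counts of markers below, 2.32% of all features were called lower at day 1, and 4.83% higher and 7.84% lower at day 2. Between day 5 and day 2, 12.8% were called higher and 12.7% lower. Alas2, the erythroid enzyme of haem synthesis, had values of -0.47, -0.30, 0.39 and 0.77 in untreated samples, -1.73, -1.60, -0.73 and -1.15 at day 1, -1.33, -3.24, -3.05 and -3.30 at day 2, and 0.64, 0.49 and 1.39 at day 5. Alas2 fell at day 2 by 2.83 (adjusted p = 2.4e-04) and was higher at day 5 than at day 2 by 3.57 (adjusted p = 3.0e-05). Of the 6 tested erythroid genes, 2 were lower at day 2, Alas2 and Bnip3l, and the same 2 higher at day 5 than at day 2, while Hba-a1, an alpha globin gene, had a day 2 change of -0.32 (adjusted p = 0.12). Klf1 had the only positive day 2 change of the 6, 1.31, which was not called, with untreated replicate 4 at -4.35. The sample medians of the erythroid list were -1.05 to -0.13 in untreated samples, -1.03 to -0.72 at day 1, -1.60 to -0.28 at day 2 and -0.01 to 0.07 at day 5.

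Monocyte genes also fell: 3 of 6 tested were lower at day 1, 5 at day 2, and 4 were higher at day 5 than at day 2. Their sample medians were 0.50 to 1.10 in untreated samples, 0.13 to 0.46 at day 1, -0.32 to -0.12 at day 2 and 0.56 to 0.97 at day 5. Of 8 tested neutrophil genes, 1 was lower at day 1, 5 were higher at day 2 and 4 lower at day 5 than at day 2. Cd177, Ltf and Ngp went the other way at day 2, without a call. Their means were -3.06, -3.61 and -2.67 at day 2, against -2.44, -3.40 and -2.28 in untreated samples. The sample medians of the 8 genes were -1.84 to -1.27 in untreated samples, -1.78 to -1.43 at day 1, -0.88 to -0.26 at day 2 and -2.16 to -1.67 at day 5. Of 5 tested NK cell genes, 3 were lower at day 2, with sample medians of 0.52 to 1.42 in untreated samples, 0.30 to 0.67 at day 1, 0.05 to 0.30 at day 2 and -0.20 to -0.03 at day 5. Of 6 tested B cell genes, 2 were lower at day 2, and 2 were higher and 3 lower at day 5 than at day 2, with sample medians of 0.21 to 0.58 in untreated samples, -0.01 to 0.19 at day 1, -0.11 to 0.17 at day 2 and -0.21 to 0.06 at day 5. Of 6 tested genes of dividing cells, 2 were higher and 1 lower at day 2, and 1 was higher and 2 lower at day 5 than at day 2, with sample medians of -2.05 to -0.97 in untreated samples, -2.98 to -2.13 at day 1, -2.71 to -0.87 at day 2 and -1.74 to -1.33 at day 5. Of 3 tested T cell genes, 1 was higher at day 2 and lower at day 5 than at day 2. Serpina1a, a liver antiprotease, fell by 2.63 at day 2 (adjusted p = 6.3e-05), whereas Apoa1, the other tested hepatocyte gene, had a change of 0.29 (adjusted p = 0.14), and the 5 other hepatocyte genes on the array had 0 to 12 values. The part of these cells in the enzyme changes was not tested, and in such bulk RNA fewer cells of a type cannot be told apart from less RNA of a gene per cell.

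**Figure D4:**
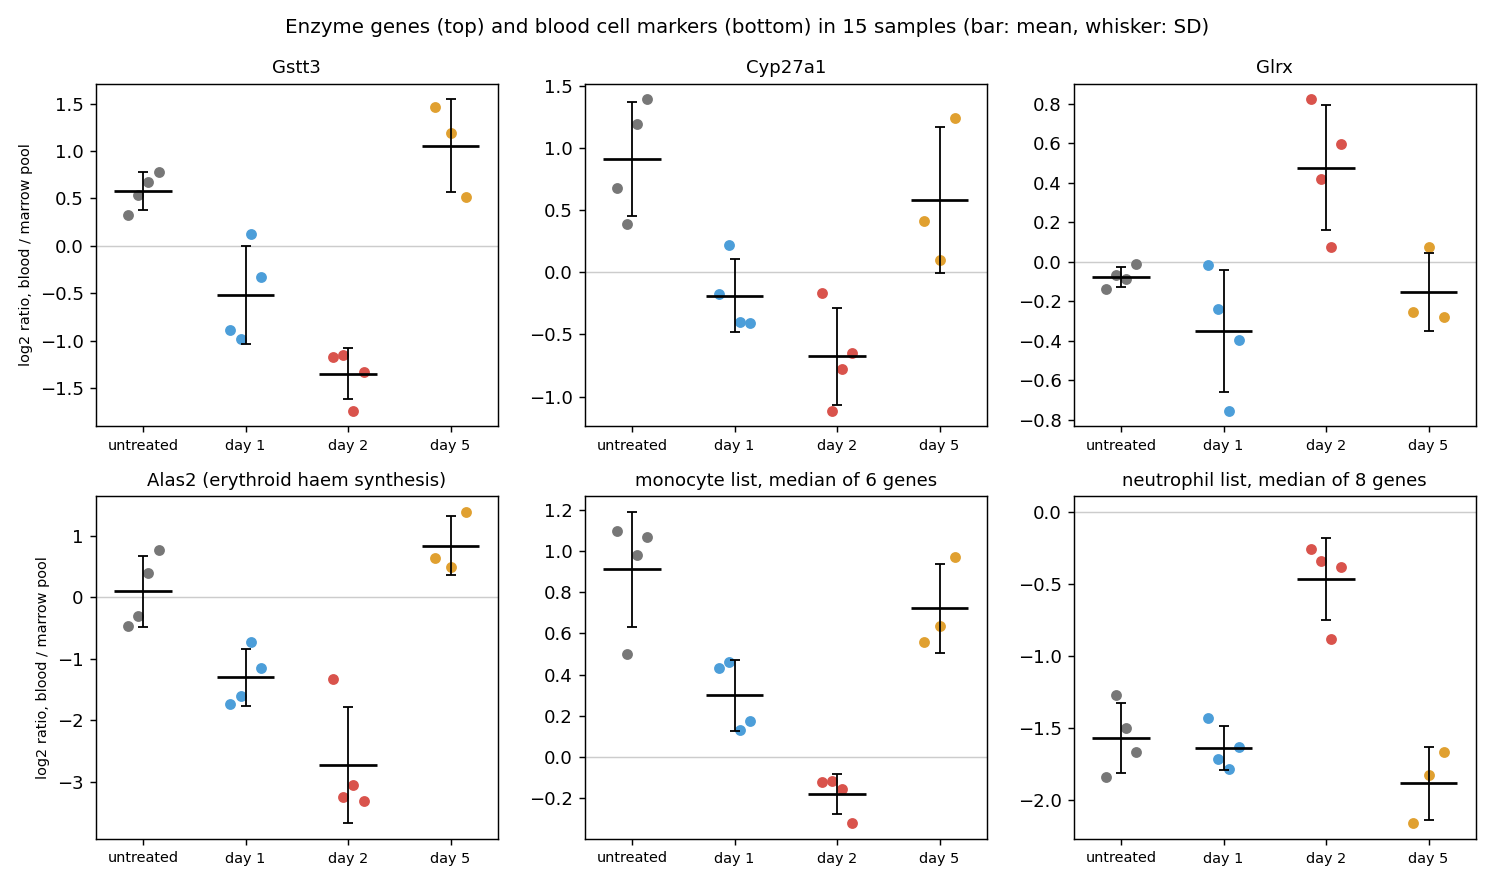
Log2 ratio of blood over the marrow pool (vertical axes, each with its own scale) of 3 members (top) and of Alas2 and the medians of 6 monocyte and 8 neutrophil genes (bottom) in untreated, day 1, day 2 and day 5 samples, with bars for means and whiskers for SD. Gstt3, Cyp27a1, Alas2 and the monocyte median were lowest at day 2, and Glrx and the neutrophil median were highest at day 2. Of the 8 neutrophil genes, Cd177, Ltf and Ngp had lower means at day 2 than in untreated samples. Alas2 is 1 of 6 tested erythroid genes. The sample medians of those 6, not drawn, overlapped between untreated (-1.05 to -0.13) and day 2 (-1.60 to -0.28).

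Of the genes that feed or regulate these enzymes, a list of Nrf2 and its partners, suppliers of NADPH, electron donors of P450s, xenobiotic receptors and iron stores, 28 were on the array and 13 were tested. Cyb5a, cytochrome b5, which passes electrons to P450s, was the 1 called: it had values of 1.45, 1.62, 1.51 and 0.80 at day 1, against 0.50, 0.39, 0.32 and -0.05 in untreated samples, and rose by 1.06 (adjusted p = 0.021). The groups did not overlap, and the call was lost without untreated replicate 3 or 4 or day 1 replicate 1 or 2 (changes of 0.94 to 1.07, adjusted p of 0.0616 to 0.0802). The other 12 were not called in any pairwise comparison, among them Nfe2l2, which encodes Nrf2, and its targets Srxn1 and Slc7a11, with day 2 changes of -0.09, 0.25 and -0.06. Larger day 2 means were seen for Fth1, 1.09 ± 0.97 against 0.46 ± 0.51 untreated (SD, n = 4, limma adjusted p = 0.33). Sqstm1 had 0.87 ± 0.245 at day 2 against 0.26 ± 0.51 untreated (SD, n = 4, limma adjusted p = 0.13). In both genes the day 2 and untreated samples overlapped. Fth1 stood highest in day 2 replicate 1, whereas day 2 replicate 4, at -0.07, lay within the untreated range. Untreated replicate 4 of Sqstm1, at 0.98, lay within its day 2 range. Over the 13 genes, day 2 changes ran from -0.39 to 0.62, 8 were positive, and 3 had an unadjusted limma p under 0.05. Of all 6515 features, 3798 had a positive day 2 change and 1740 an unadjusted limma p under 0.05. The list's median change was 0.06 at day 1 and 0.25 at day 2, beside 0.03 and 0.06 over all features.

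The 5 related genes set aside with their results known were called too. Cyp4f18, a leukotriene hydroxylase of mouse neutrophils, rose by 1.32 at day 2 (adjusted p = 1.4e-04) and was lower at day 5 than at day 2 by a change of -2.82 (adjusted p = 2.1e-07), Txn1 rose by 1.00 at day 2 (adjusted p = 3.4e-04), Gpx1 fell by 1.27 at day 2 (adjusted p = 3.1e-04), and at day 1 Mgst1 fell by 1.07 and Gpx4 rose by 1.06 (adjusted p = 0.0051 and 0.012).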

How the data were processed

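The deposited values are log2 ratios of blood (Cy5) over the marrow pool (Cy3), 1 column per array, per the labels' dyes; the base of the log, the scanner, the background correction and the normalization are not stated, and base 2 was assumed. Total RNA was amplified and coupled to the dyes, per the labels' protocols. Columns had medians of -0.0028 to 0.0254 and 5314 to 9398 values among 13443 probes, of which 10032 carried 1 gene symbol in the platform annotation. What an empty value means is not given. Precision is limited by the number of arrays, and a ratio within an array shows unequal change only.

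Technical replicates, none of them identical, were averaged and counted as 1 sample, then probes of a gene were averaged. Features needed at least 3 values in the untreated, day 1 and day 2 groups and 2 at day 5. limma 3.58.1 in R 4.3.3 fitted group means over all 15 samples (lmFit, eBayes), and p-values were adjusted by Benjamini-Hochberg over 6515 features in each comparison, with calls at 0.05. Methods were tested on simulated data in which 200 of 6515 features changed. The simulated noise was normal and independent between features and samples, with each feature's own spread. Over the 5 comparisons, 26.9% to 43.3% of changes of 0.5 log2 were recovered, 82.1% to 89.6% of 1 and 98.5% to 100% of 2. Of the calls, 2.11% to 6.88% were false. In this simulation changes of 0.5 were missed more often than found, so a gene not called may still have changed by that much. In the data 1.09% to 25.5% of features were called in a comparison, and deviations shared by many features of a sample were not simulated. The rates may therefore differ in the data. Missing values were left out of the fit, not imputed. Promoters came from RefSeq (GRCm38.p6), 60 of 70 tested members matched one, and pairs were aligned with Biopython 1.88; figures were drawn with matplotlib 3.10.9.

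The members and lists were chosen with earlier results of these data known. Named are members and pathway genes called in a pairwise comparison, the member with the lowest F test p in each family, well-known enzymes of cyclophosphamide metabolism and redox control whatever their values, and the genes set aside. Close relatives of called members were added after their values were seen. Alternatives were quantile normalization, no filter, complete features, single technical replicates, single probes, a robust prior, fits of the compared groups alone, a replicate block, the 5 genes set aside as members, and leaving out each sample. Same-numbered samples of different groups correlated in their deviations with r of -0.284 to 0.171, so the numbers were not taken to pair samples.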

Additional observations from a re-analysis of the deposited data

Results flagged for a closer look

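Among 91 groups of 4 samples of the named genes, 4 held a sample whose distance from its nearest neighbour took up a larger share of the group's range than Dixon's critical value for 4 samples, where chance gives about 1 in 20 groups. Gsto1, the omega class glutathione transferase, stood at 2.28 in day 1 replicate 2 and at 1.41 to 1.51 in the other day 1 samples. Cyp3a16 stood at 0.06 in untreated replicate 4 and at -0.17 to -0.16 in the other untreated samples. Cyp46a1 stood at -0.15 in untreated replicate 1 and at 0.11 to 0.14 in the others. Txnrd1, the cytosolic thioredoxin reductase, stood at -0.48 in day 1 replicate 1 and at -0.10 to -0.03 in the others.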

How the results depend on the processing

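Of the 31 calls of members, 13 held under every alternative run, and 0 called changes reversed. At day 1 the count of 5 members became 3 with no filter, 9 in fits of only the compared groups, 1 with a replicate block and 8 with the 5 genes set aside, and leaving out 1 sample gave 1 to 6 (1 without untreated replicate 3 or 4 or day 1 replicate 1, 2 or 4). At day 2, leaving out 1 sample gave 6 to 10 in place of 8. At day 5 the count of 0 became 2 with the genes set aside and 0 to 1 on leaving out a sample, the 1 without day 5 replicate 3. Between day 2 and day 1 the count of 2 became 1 under quantile normalization, with no filter, with technical replicate 2 alone and with a replicate block, 0 with technical replicate 1 alone and in the 2-group fit, 4 with the genes set aside, and 0 to 3 on leaving out a sample (0 without untreated replicate 3, day 1 replicate 3 or 4 or day 2 replicate 1, 2 or 4). Between day 5 and day 2 the count of 16 became 8 in the 2-group fit and 10 to 16 on leaving out a sample (10 without day 5 replicate 1 or 2). The F test's 15 became 9 with a replicate block and 11 to 16 on leaving out a sample. The cause of these shifts was not tested.

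Over all features, the day 1 count of 300 was 462 under quantile normalization (182 higher and 280 lower, against 149 and 151), 578 in the 2-group fit and 131 with the block. Between day 2 and day 1, 75 became 35 with no filter, 5 in the 2-group fit, 31 with the block and 44 with technical replicate 1 alone. Between day 5 and day 2, 1664 became 935 in the 2-group fit, and at day 5 against untreated 71 became 111 under quantile normalization, 116 over complete features and 34 in the 2-group fit. Leaving out 1 sample gave 60 to 438 features at day 1 (60 to 80 without untreated replicate 3 or 4 or day 1 replicate 1, 2 or 4, 164 without untreated replicate 2, 195 without untreated replicate 1), 529 to 942 at day 2 (529 without untreated replicate 4), 27 to 224 at day 5 against untreated (27 without day 5 replicate 1, 40 and 42 without untreated replicates 4 and 3, 107 and 224 without day 5 replicates 2 and 3), 3 to 94 between day 2 and day 1 (3, 6 and 37 without day 1 replicates 4, 3 and 1, 7 and 28 without day 2 replicates 2 and 4, 31 and 41 without untreated replicates 3 and 1), 1196 to 1856 between day 5 and day 2, and 1121 to 1680 in the F test. With no intensities used here, low signal and a ratio near 0 could not be told apart.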
